A study of Homo sapiens with 6 samples.

Results

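10 genes for immediate-early transcription factors were followed in RNA-Seq data from MCF10A, a nonmalignant human breast epithelial cell line. They are 7 subunits of activator protein 1, or AP-1 (FOS, FOSB, FOSL1, FOSL2, JUN, JUNB and JUND), the related factor ATF3, and the early growth response factors EGR1 and EGR3. All 10 were found by gene name among the 58735 genes of the deposited count table, and all 10 passed the filter on low counts that left 15430 genes. The genes were chosen on earlier results of these same siDAB2IP and siControl libraries, so their differences between the groups are a description. Where a gene is said to have been called, or to have risen or fallen, that gives its place in the edgeR fit over all genes and is no independent evidence.

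All cells were grown with horse serum, insulin, epidermal growth factor (EGF), cholera toxin and hydrocortisone. The siControl cells, whose genotype is labelled WT, received a nontargeting siRNA pool. The siDAB2IP cells, labelled DAB2IP knockdown, received siRNA against DAB2IP, a Ras GTPase-activating protein. RNA was taken 48 hours after transfection, and each group had 3 libraries. The labels do not state whether the libraries came from separate cultures, so the spread between them may be technical. With a single targeting reagent, effects of DAB2IP loss and off-target effects of the siRNA cannot be told apart.

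AP-1 is a dimer. FOS proteins cannot pair with one another and bind DNA with a JUN partner, whereas JUN proteins also pair with each other. In epithelial cells, EGF receptor signaling through Ras and the kinases ERK1 and ERK2 phosphorylates ternary complex factors such as ELK1, which sit with serum response factor (SRF) on the promoters of FOS and EGR1 and switch both genes on within minutes, while FOSL1 is known to stay on when ERK activity is sustained. EGR1 and EGR3 are zinc finger activators that are held back by the corepressors NAB1 and NAB2.

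Of the 10 genes, EGR1 and FOS fell with DAB2IP knockdown, FOSL1 rose, and the other 7 were not called at an adjusted p under 0.05 in the edgeR fit over all genes tested. In that fit 7.65% of the genes tested fell and 6.55% rose, which is background to these counts only, since the same contrast chose the genes. Each siDAB2IP library was higher than each siControl library for FOSL1 and FOSB, as for 17.6% of all genes tested, and lower for EGR1, FOS and FOSL2, as for 18.3%. The median log2 fold change of the 10 genes was −0.17, with 5 higher and 5 lower, and that of all genes tested was 0.009.

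The promoter sequences of 2 genes that fell, FOS and EGR1, are shown with that of FOSB, a gene of the FOS family that was not lower in any siDAB2IP library. They are RefSeq sequences on GRCh38.p14, 5′ to 3′ on the plus strand, which is the strand of all 3 genes, and end before the first base annotated as transcribed. Capitals mark matches to TGACGT (the core of the cAMP response element, read on either strand), to the CArG box bound by SRF, or to TATAAA.
FOS, chr14:75278678-75278773: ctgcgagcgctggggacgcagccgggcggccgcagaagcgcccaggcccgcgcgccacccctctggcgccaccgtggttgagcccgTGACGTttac
EGR1, chr5:138465329-138465478: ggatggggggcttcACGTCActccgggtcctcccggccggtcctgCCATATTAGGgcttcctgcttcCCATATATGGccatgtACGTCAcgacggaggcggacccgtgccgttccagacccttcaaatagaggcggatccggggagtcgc
FOSB, chr19:45467846-45467994: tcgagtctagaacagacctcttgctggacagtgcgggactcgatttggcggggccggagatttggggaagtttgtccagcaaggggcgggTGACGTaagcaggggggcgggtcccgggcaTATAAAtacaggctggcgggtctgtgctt

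Windows of 250 bases before to 50 bases after the RefSeq start were searched for 8 of the 10 genes, all but FOSL1 and EGR3, beside 35116 such windows in all. TGACGT was found on either strand in FOS (from −64 to −59), FOSB (−60 to −55), FOSL2 (−66 to −61), EGR1 (−136 to −131 and −67 to −62, both on the minus strand) and JUND, or 5 of 8, against 7.98% of all windows. The longer palindrome TGACGTCA, which contains TGACGT, was found in JUND alone (−200 to −193; 1.85% of all windows). The AP-1 element TGACTCA was found in FOSL2 alone (from 5 to 11 bases past the start; 4.95%), and its variant TGACATCA in JUN (−67 to −60) and ATF3 (−123 to −116; 2.61%). CArG boxes were found in EGR1 alone, at −105 to −96 and −83 to −74 (1.29%), as was the EGR element GCGNGGGCG (−198 to −190; 9.43%). TATAAA, searched on the plus strand, was found in FOS, FOSB, JUNB and ATF3 (7.33%). No window of the 8 genes held a match to the κB motif, which 11.3% of all windows hold. Further elements may lie outside these windows, and the RefSeq starts of FOS, FOSL2, JUN and ATF3, and by 1 base that of FOSB, lie inside the genes as annotated in the count table. The TATAAA match of FOS, at −33 to −28, is thus within the annotated gene and is not part of the sequence shown. TGACGT occurred both in genes that fell (FOS and EGR1) and in genes that were not called (FOSB, FOSL2 and JUND). FOSL1, which rose, was not searched, and any part of the motif in these differences was not tested.

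Levels are given in CPM, counts scaled to the library total with TMM factors. DAB2IP, the targeted gene, averaged 91.6 ± 13.1 CPM in siControl and 25.2 ± 2.58 CPM in siDAB2IP (SD, n = 3; log2 fold change −1.86, standard error 0.13, adjusted p = 9.7e-05 from edgeR). Each library held 16353783 to 21916062 counts. A count of 0 therefore allows up to 0.139 to 0.187 CPM by counting error alone. FOSB had 10 to 34 counts in a library, EGR3 2 to 27 and ATF3 26 to 64, so the values of these 3 genes are imprecise.

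FOS (chromosome 14, 75278774 to 75282230, plus strand) encodes the best known immediate-early partner of JUN. It was at 98.3, 82.9 and 72.0 CPM in siControl replicates 1 to 3 and at 46.3, 34.3 and 17.5 CPM in siDAB2IP replicates 1 to 3. The groups did not overlap, and siDAB2IP replicate 3 was the lowest library. The log2 fold change was −1.37 (standard error 0.28), a level 2.58-fold lower. Without siDAB2IP replicate 3 it was −1.07, and FOS was called with each library left out in turn.

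FOSL1 (chromosome 11, 65892049 to 65900573, minus strand) encodes FRA-1, a FOS-family protein without the transactivation domain of FOS that is known from basal-like breast cells. It went the other way. Its levels were 19.6, 18.7 and 23.5 CPM in siControl and 31.3, 41.9 and 36.2 CPM in siDAB2IP replicates 1 to 3. All 3 siDAB2IP libraries were higher than the highest siControl library, by a log2 fold change of 0.83 (standard error 0.14), or 1.77-fold. With a library left out the log2 fold change lay between 0.71 and 0.93, and FOSL1 was called in all 6 of these fits.

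FOSL2 (chromosome 2, 28392448 to 28417312, plus strand) encodes FRA-2, a close relative of FRA-1. It was the FOS-family gene with the most reads, at 379, 334 and 303 CPM in siControl and 286, 251 and 241 CPM in siDAB2IP. The lowest siControl library was above the highest siDAB2IP library, but the difference was modest (log2 fold change −0.38, standard error 0.12). It was not called in the fit without a replicate block, and it was called at the same size (−0.38) once the replicate number was added as a block. The same-numbered libraries differed by −0.41, −0.41 and −0.33 on the log2 scale, the narrowest range of the 10 genes.

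FOSB (chromosome 19, 45467995 to 45475179, plus strand), whose product activates transcription like FOS, was close to the limit of detection. Its levels were 1.12, 1.07 and 0.587 CPM in siControl and 1.92, 1.61 and 1.80 CPM in siDAB2IP replicates 1 to 3. The groups did not overlap and the siDAB2IP libraries were higher, with a log2 fold change of 0.93 (standard error 0.33) that was not called. Its gene overlaps ERCC1 on the opposite strand with 0 shared exonic bases, and ERCC1 rose as well (38.0 to 51.6 CPM).

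The makeup of the FOS family differed between the libraries of both groups. Compared per length, in the deposited FPKM (counts divided by gene length and by library total), FOS made up 32.3, 31.1 and 28.8% of the summed FOS-family level in siControl replicates 1 to 3, and 20.1, 15.5 and 9.22% in siDAB2IP replicates 1 to 3. FOSL1 made up 11.0, 12.02 and 16.1% in siControl and 23.3, 32.6 and 32.7% in siDAB2IP. FOS was above FOSL1 in every siControl library and FOSL1 above FOS in every siDAB2IP library. The ratio of FOSL1 to FOS FPKM was 0.341, 0.386 and 0.56 in siControl and 1.16, 2.1 and 3.55 in siDAB2IP. FOSL2 held 56.0 ± 0.933% of the family level in siControl and 55.1 ± 3.16% in siDAB2IP (SD, n = 3 in each group), and FOSB held 0.195 ± 0.0513% and 0.487 ± 0.0639%. The summed level itself was lower in each siDAB2IP library than in each siControl library, at 83.7 ± 8.44 FPKM in siControl and 65.3 ± 6.55 FPKM in siDAB2IP (SD, n = 3). These shares use the values that chose the genes and were not tested.

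**Figure D1:**
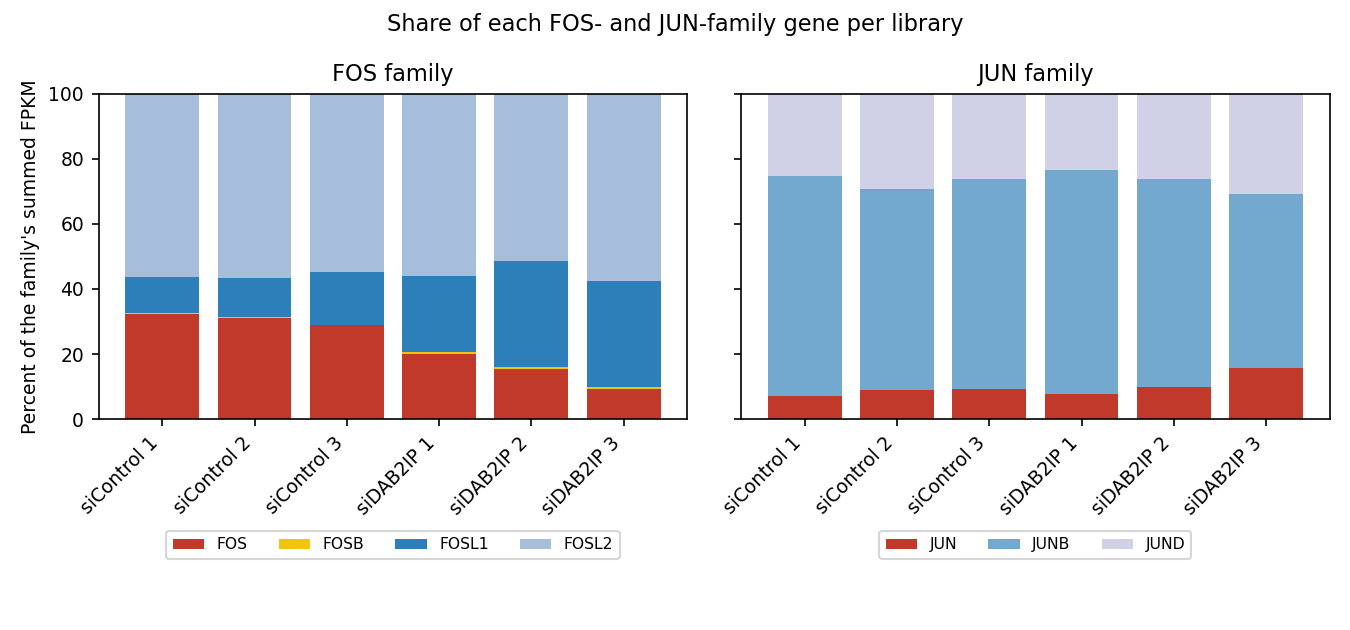
Share of the summed FPKM of the FOS family (FOS, FOSB, FOSL1, FOSL2) and of the JUN family (JUN, JUNB, JUND) held by each member, in percent, in each of the 6 libraries. The FOS share was 28.8 to 32.3% in siControl and 9.22 to 20.1% in siDAB2IP, the FOSL1 share was 11.0 to 16.1% and 23.3 to 32.7%, and FOSL2 held the most FOS-family and JUNB the most JUN-family transcripts in all 6 libraries.

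JUN (chromosome 1, 58780788 to 58784327, minus strand) encodes the main activating partner of FOS proteins. It was at 31.96, 32.3 and 34.9 CPM in siControl and at 34.2, 41.6 and 65.2 CPM in siDAB2IP replicates 1 to 3. The siControl libraries lay close together, whereas siDAB2IP replicate 1 overlapped them and replicate 3 stood far above. The log2 fold change was 0.51 (standard error 0.20) and was not called. Without siDAB2IP replicate 3 it was 0.20, and without siDAB2IP replicate 1 it was 0.69 and was called.

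JUNB and JUND, whose products pair with the same FOS proteins and are weaker activators than JUN, overlapped between the groups. JUNB (chromosome 19, 12791496 to 12793315, plus strand) was at 155, 116 and 123 CPM in siControl and at 158, 137 and 114 CPM in siDAB2IP. Its log2 fold change was 0.05, with a 95% confidence interval from −0.28 to 0.38. It changed sign in 3 of 16 alternatives, which include the same fit at an adjusted p under 0.01. JUNB shares 259 exonic bases, 14.2% of its exonic length, with HOOK2 on the opposite strand, which was at 112 CPM in siControl and 106 CPM in siDAB2IP. JUND (chromosome 19, 18279760 to 18281622, minus strand) was at 60.1, 56.4 and 51.1 CPM in siControl and at 55.3, 57.7 and 67.1 CPM in siDAB2IP, with a log2 fold change of 0.10 and an interval from −0.14 to 0.35.

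In the JUN family, the shares of each member overlapped between the groups. JUNB held 64.6 ± 2.81% of the summed JUN-family FPKM in siControl and 62.0 ± 7.83% in siDAB2IP (SD, n = 3 in each group), JUND held 27.0 ± 2.09% and 26.9 ± 3.67%, and JUN held 8.45 ± 1.18% and 11.1 ± 4.17%. The summed level was 111 ± 12.8 FPKM in siControl and 119.0 ± 5.18 FPKM in siDAB2IP (SD, n = 3), and the libraries of the groups overlapped. In siControl cells the JUN family was thus above the FOS family in each library, at 103 to 125 FPKM against 76.4 to 92.9 FPKM.

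ATF3 (chromosome 1, 212565334 to 212620777, plus strand), a stress-induced repressor that pairs with JUN proteins, was low in both groups. It was at 3.99, 2.46 and 1.64 CPM in siControl and at 2.03, 1.99 and 1.51 CPM in siDAB2IP. The groups overlapped, and siControl replicate 1 stood above the other libraries. The log2 fold change was −0.54 (standard error 0.34) and was not called, and it was −0.19 without siControl replicate 1.

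EGR1 (chromosome 5, 138465490 to 138469315, plus strand), an activator that growth factors induce within minutes, had the lowest log2 fold change of the 10 genes. It was at 115, 90.1 and 94.4 CPM in siControl and at 33.1, 33.6 and 10.4 CPM in siDAB2IP replicates 1 to 3. Every siDAB2IP library was below every siControl library, and siDAB2IP replicate 3 was again the lowest. The log2 fold change was −1.95 (standard error 0.34), a level 3.88-fold lower. It was −1.58 with siDAB2IP replicate 3 left out and −2.19 with siDAB2IP replicate 2 left out, and EGR1 was called in all 6 fits that left out a library.

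EGR3, a factor of the same family that EGR1-inducing signals also switch on, lies on chromosome 8 and was near the limit of detection. It had 19, 27 and 16 counts in siControl and 9, 23 and 2 counts in siDAB2IP replicates 1 to 3, or 1.18, 1.25 and 0.939 CPM against 0.508, 1.27 and 0.116 CPM. The siDAB2IP libraries spanned the siControl range from above to far below. The log2 fold change of −0.82 had a standard error of 0.59 and was not called. It was −0.34 without siDAB2IP replicate 3 and −1.82 without siDAB2IP replicate 2. The antisense gene AC055854.1 shares 164 exonic bases, or 3.38%, with EGR3. It had at most 5 counts in a library.

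**Figure D2:**
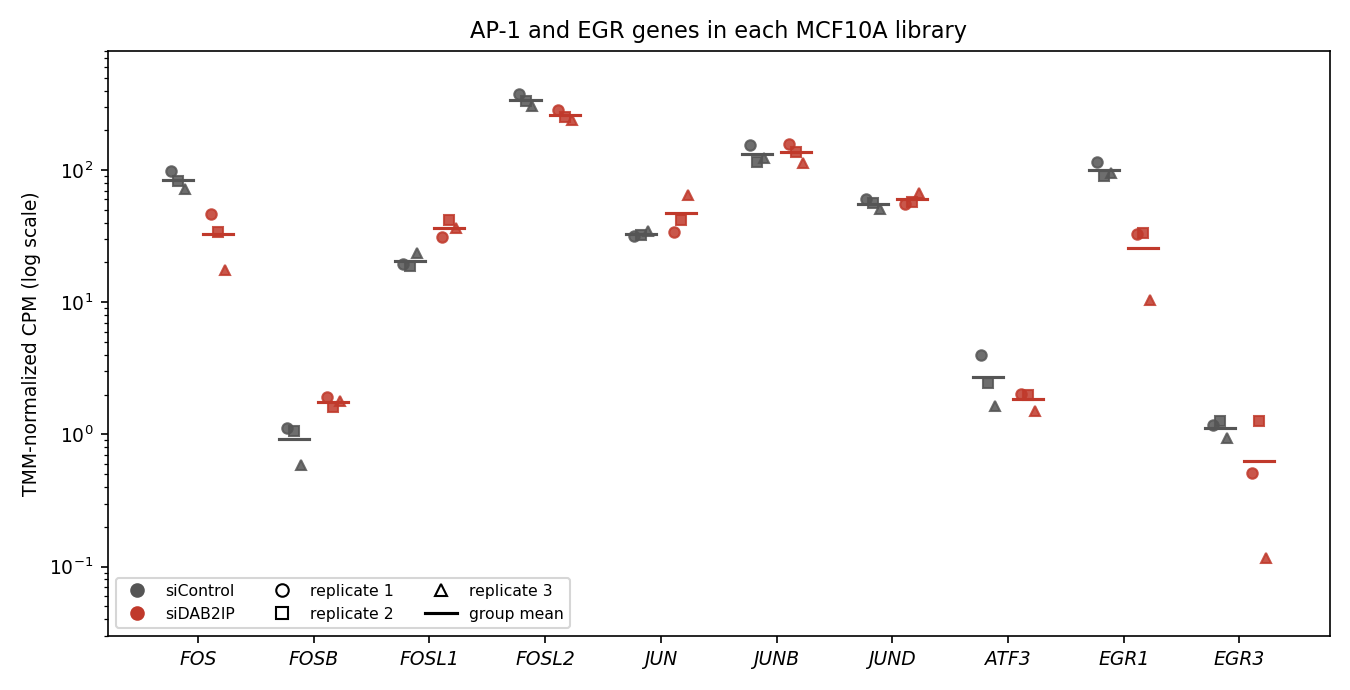
CPM (log scale) of the 10 genes in each of the 3 siControl (grey) and 3 siDAB2IP (red) MCF10A libraries, with the symbol for the replicate number and a line at the group mean. The groups are apart for FOS, EGR1 and FOSL2, which are lower in siDAB2IP, and for FOSL1 and FOSB, which are higher, and siDAB2IP replicate 3 is the lowest library for FOS (17.5 CPM), EGR1 (10.4 CPM) and EGR3 (0.116 CPM) and the highest for JUN (65.2 CPM).

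siDAB2IP replicate 3 was thus at the edge of its group for several of these genes. The difference between libraries of the same number, on the log2 scale, was −1.79, −1.42 and −3.16 for EGR1 in replicates 1 to 3 and −1.09, −1.27 and −2.03 for FOS. The JUN difference was 0.10, 0.36 and 0.90 and the JUND difference −0.12, 0.03 and 0.39. FOSL1 did not follow this order, at 0.67, 1.16 and 0.62. Outside the 10 genes, siDAB2IP replicate 3 also had the highest CDKN1A (739 CPM, against 369 and 454 CPM in the other siDAB2IP libraries) and the lowest KRT14 (440 CPM, against 969 and 885 CPM). CDKN1A and KRT14 are examples, and in a group of 3 libraries 1 is always the highest and 1 the lowest. How often siDAB2IP replicate 3 held such a place over all genes was not counted. Whether it differs as a whole from the other libraries was not tested.

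**Figure D3:**
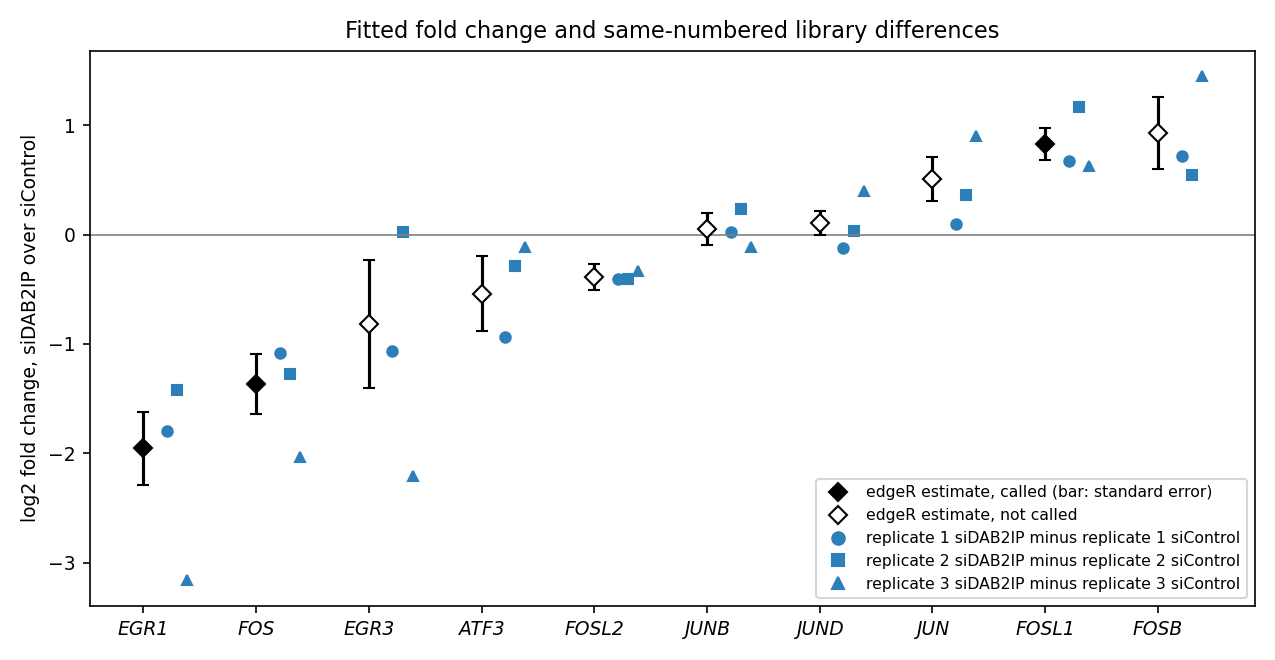
Log2 fold change (siDAB2IP over siControl) of the 10 genes from edgeR, as diamonds with standard errors (filled where the gene was called), beside the log2 difference of the libraries with replicate numbers 1, 2 and 3. EGR1 (−1.95) and FOS (−1.37) lie lowest and FOSL1 (0.83) and FOSB (0.93) highest, and the replicate 3 difference of EGR1 (−3.16) and FOS (−2.03) lies below the other two.

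Per length, the order of the levels changed between the groups. In siControl it ran from JUNB (71.6 ± 11.3 FPKM; SD, n = 3) and FOSL2 (46.9 ± 5.26 FPKM) to EGR1 (31.5 ± 4.11 FPKM), JUND (29.7 ± 2.42 FPKM) and FOS (25.8 ± 4.03 FPKM). The ranges of EGR1, JUND and FOS overlapped. Within each siControl library FOS was the lowest of these 3, whereas EGR1 and JUND changed order between libraries. FOSL1 (10.8 ± 1.33 FPKM) and JUN (9.25 ± 0.440 FPKM) followed, and ATF3, EGR3 and FOSB were below 1 FPKM in every library. Among the 15430 genes tested, JUNB, FOSL2, EGR1, JUND and FOS were above 90.1 to 97.0% of genes in siControl FPKM.

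In siDAB2IP, JUNB (73.95 ± 12.1 FPKM) was again the highest and FOSL2 (35.9 ± 3.3 FPKM) and JUND (31.9 ± 3.29 FPKM) overlapped behind it (SD, n = 3). FOSL1 came next at 19.1 ± 2.78 FPKM. JUN (13.1 ± 4.51 FPKM) was below FOSL1 in each siDAB2IP library, although their ranges overlapped. JUN and FOS (9.99 ± 4.43 FPKM) changed order between libraries, as did FOS and EGR1 (8.10 ± 4.17 FPKM). EGR1 and FOS thus moved from among the more abundant of the 10 transcripts to below FOSL1.

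The deposited table assigns the 8 AP-1 and ATF genes to the bZIP family of transcription factors and EGR1 and EGR3 to the C2H2 zinc finger family. Of the 41 bZIP genes tested, FOS had the lowest log2 fold change, FOSB the highest and FOSL1 the second highest. Since the same contrast chose these genes, such ranks were favored from the start, and that of FOSB rests on 10 to 34 counts in a library. EGR1, chosen in the same way, had the lowest of the 485 zinc finger genes tested. EGR3 had the ninth lowest, but it was not called, its groups overlapped, and its rank rests on 2 to 27 counts in a library. Among the 33 other bZIP genes 2 rose and 3 fell (median log2 fold change −0.07), and among the 483 other zinc finger genes 15 rose and 13 fell (median 0.005). Of all genes tested 6.55% rose and 7.65% fell, so the other zinc finger genes were called less often than genes at large. As a description, the genes whose log2 CPM followed each of the called genes most closely over the 6 libraries were GJB2, TINF2 and MKRN1 for FOS (Pearson r of 0.999, 0.997 and 0.997), ERI1, MSN and E2F2 for EGR1 (0.9995, 0.9994 and 0.9993) and BCDIN3D, SMTN and DNAJC4 for FOSL1 (0.996, 0.995 and 0.993). The 6 points are 2 groups of 3 libraries, so these values mostly follow the difference between the groups.

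The other genes of the pathway were taken from lists that were likewise drawn up with earlier results of these data known. Of 37 genes for SRF, ternary complex factors, Ras proteins and MAP kinases tested, 3 rose and 4 fell, with a median log2 fold change of −0.02. These are 8.11% and 10.8% of the list, near the 6.55% and 7.65% of all genes tested. ELK4, a ternary complex factor, fell from 138 ± 9.81 to 89.1 ± 5.19 CPM (SD, n = 3; log2 fold change −0.63, adjusted p = 0.00397 from edgeR). The kinase genes RPS6KA5 (−0.80, adjusted p = 0.0234 from edgeR), BRAF (−0.42, 0.0415) and MAP3K5 (−0.44, 0.0429) fell too. The kinase gene MAP2K1, which encodes the ERK activator MEK1, rose from 60.2 ± 6.09 to 91.6 ± 16.7 CPM (SD, n = 3; log2 fold change 0.61, adjusted p = 0.0198 from edgeR), and RPS6KA2 (0.62, adjusted p = 0.00514 from edgeR) and MRAS (1.03, 0.0196) rose with it. SRF itself was at 44.98 ± 3.62 and 44.7 ± 2.62 CPM (SD, n = 3). This list depended on single libraries, with 1 that rose and 1 that fell without siControl replicate 2 or without siControl replicate 3, and with the replicate block 6 rose and 8 fell.

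Among 29 other bZIP genes that can pair with AP-1 proteins or compete with them, 2 rose and 3 fell, with a median log2 fold change of 0. These are 6.9% and 10.3% of the list, near the 6.55% and 7.65% of all genes tested. NFIL3, a repressor, fell from 74.9 ± 1.84 to 31.0 ± 3.19 CPM (SD over 3 libraries; edgeR adjusted p = 0.000204). CEBPD was at the threshold (log2 fold change −0.75, adjusted p = 0.0497 from edgeR). MAFG (0.48, adjusted p = 0.00784 from edgeR) and ATF6 (0.37, 0.0306) rose. Without siControl replicate 2, 0 genes of this list rose and 2 fell. Of the partners of the EGR factors, the corepressor gene NAB2, itself a known EGR1 target, fell from 52.0 ± 4.23 to 35.7 ± 4.72 CPM (SD, n = 3; log2 fold change −0.54, adjusted p = 0.0185 from edgeR), a call that was lost without siControl replicate 1 or siControl replicate 2. NAB1 was at 86.4 ± 1.21 and 71.9 ± 12.1 CPM (SD, n = 3) and was not called. EGR2 and EGR4 were too low to be tested, at means of 0.0942 to 0.188 CPM.

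Of 39 other immediate-early genes tested, 8 fell and 2 rose, or 20.5% and 5.13%, beside 7.65% and 6.55% of all genes. The median log2 fold change was −0.14. Since earlier results were known when the list was drawn up, the shares of all genes are background only. The kinase gene SGK1, which glucocorticoids and serum induce, fell from 62.9 ± 7.52 to 24.0 ± 2.73 CPM (SD, n = 3; log2 fold change −1.39, adjusted p = 0.000346 from edgeR). The atypical IκB gene NFKBIZ (−0.56, adjusted p = 0.00667 from edgeR), the cyclin gene CCNL1 (−0.52, 0.00995), the mRNA decay factor gene ZFP36 (−0.48, 0.0167) and the clock gene PER1 (−0.38, 0.0284) fell as well. IER3, a survival gene also induced by NF-κB, rose from 49.9 ± 1.40 to 87.3 ± 13.1 CPM (SD, n = 3; log2 fold change 0.81, adjusted p = 0.00308 from edgeR), and the kinase gene PLK3 rose by less (0.45, adjusted p = 0.0291 from edgeR). Without siControl replicate 2, 3 genes of this list fell and 1 rose, and without siControl replicate 1, siControl replicate 3 or siDAB2IP replicate 1, 5 fell and 1 rose. With the replicate block 11 fell and 4 rose.

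**Figure D4:**
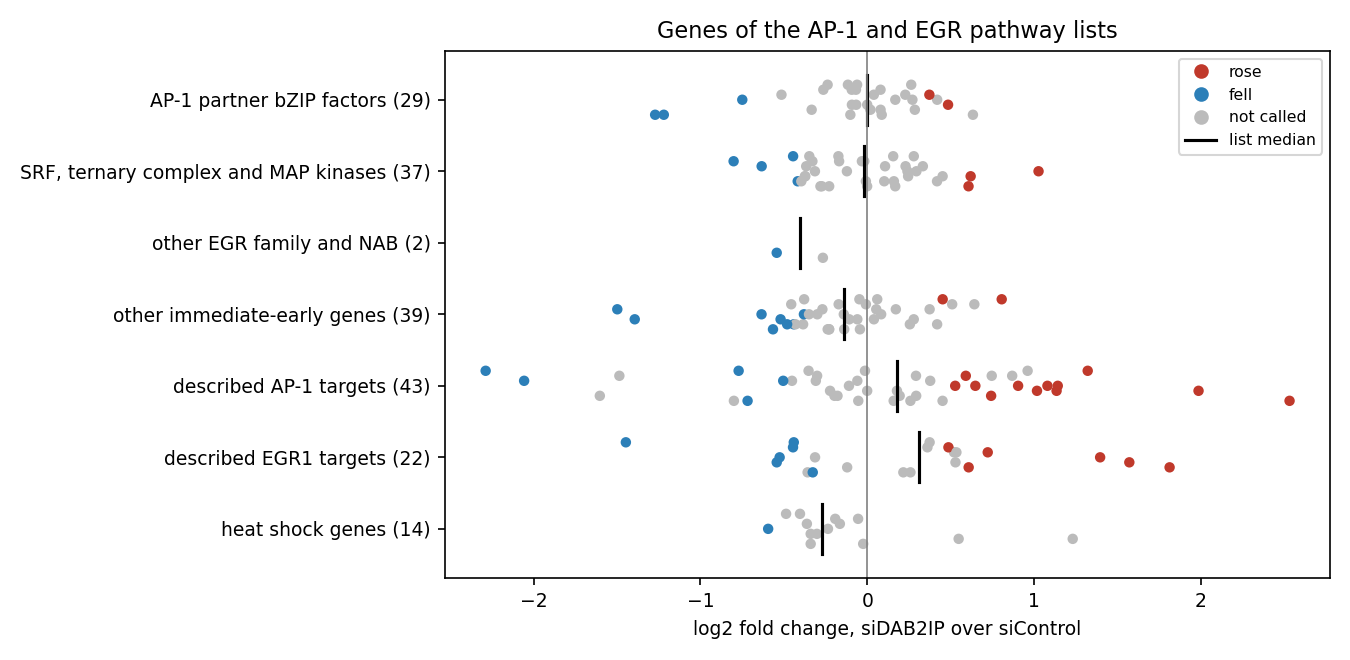
Log2 fold change (siDAB2IP over siControl) of each tested gene in 7 lists of the AP-1 and EGR pathway, with the number tested in brackets, red for genes that rose, blue for genes that fell, grey for genes not called and a black line at the list median. Medians run from −0.40 for the other EGR and NAB genes to 0.31 for described EGR1 targets, and calls in both directions occur among the AP-1 targets (12 rose, 5 fell) and the EGR1 targets (6 rose, 6 fell).

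Genes described as AP-1 targets moved in both directions. Of 43 tested, 12 rose and 5 fell, or 27.9% and 11.6%, beside 6.55% and 7.65% of all genes tested. The median log2 fold change was 0.18. As the list was drawn up with earlier results of these data known, the shares of all genes are background only. ITGA5, the fibronectin receptor subunit, was at 621, 616 and 635 CPM in siControl and at 1321, 1305 and 1332 CPM in siDAB2IP (log2 fold change 1.08, adjusted p = 0.000449 from edgeR). PLAUR, the urokinase receptor gene (1.14, adjusted p = 0.00109 from edgeR), PLAU, the urokinase gene (0.74, 0.00269), LAMB3, a laminin chain gene (1.02, 0.00128), and CCND1, the cyclin D1 gene (1.14, 0.00183), rose as well.

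KRT16 fell from 248 ± 32.2 to 146 ± 16.5 CPM and KRT6A from 1395 ± 148 to 849 ± 89.3 CPM (SD over 3 libraries; edgeR adjusted p = 0.00523 and 0.00805), both keratins of activated epidermis. S100A8 fell by 2.06 on the log2 scale (adjusted p = 0.0121 from edgeR), with siDAB2IP replicate 3 the lowest at 16.5 CPM. MMP9, at 0.058 to 0.388 CPM in siDAB2IP, was near the limit of detection there (adjusted p = 0.0168 from edgeR), and MMP14 fell by 0.50 on the log2 scale (adjusted p = 0.0179 from edgeR). The counts of this list were 6 that rose and 3 that fell without siControl replicate 1 or without siControl replicate 2, and 16 and 9 without siDAB2IP replicate 3.

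Of 22 genes described as EGR1 targets, 6 rose and 6 fell, 27.3% in each direction beside 6.55% and 7.65% of all genes tested. The median log2 fold change was 0.31. Earlier results were known for this list too, so the shares of all genes are background only. CDKN1A, the cell cycle inhibitor gene, rose from 148 ± 1.24 to 521 ± 194 CPM, and SPHK1, a sphingosine kinase gene, from 9.26 ± 1.30 to 27.6 ± 6.03 CPM (SD over 3 libraries; edgeR adjusted p = 0.00135 for each). The tissue factor gene F3 (log2 fold change 1.40, adjusted p = 0.00452 from edgeR), PDGFA (0.72, 0.00869) and GADD45A (0.49, 0.0207) rose too. TP73 (−1.45, adjusted p = 0.0163 from edgeR), NDRG1 (−0.52, 0.0196) and GADD45B (−0.44, 0.0353) fell along with NAB2. The 6 that fell were not stable to the choice of libraries, with 0 that fell and 3 that rose without siControl replicate 2 and 1 that fell and 4 that rose without siControl replicate 1.

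Heat shock genes were used as a measure of stress during handling, which also induces FOS and EGR1. Of 14 tested, 12 were lower and 2 higher in siDAB2IP, with a median log2 fold change of −0.27. Among all genes tested 48.9% were lower. DNAJB1 alone fell (117 ± 4.70 to 77.7 ± 6.89 CPM; SD over 3 libraries; edgeR adjusted p = 0.00528). That is 7.14% of the list, near the 7.65% of all genes tested. Under the replicate block 4 fell, and without siDAB2IP replicate 2, 3 fell. The list summed to 5220 to 6470 CPM in siControl and 4500 to 6040 CPM in siDAB2IP. Its part in the fall of FOS and EGR1 was not tested.

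All 8 markers of basal mammary epithelium were expressed. With the knockdown 3 fell and 0 rose, or 37.5% and 0%, beside 7.65% and 6.55% of all genes tested. The marker lists were likewise chosen with earlier results known, so the shares of all genes are background only. KRT5 went from 3532 ± 378 to 1800 ± 40.9 CPM, KRT14 from 2186 ± 308 to 765 ± 285 CPM and KRT17 from 813 ± 161 to 560.3 ± 32.5 CPM (SD, n = 3). The other 5 were not called, and of all 8 markers 6 were lower and 2 higher in siDAB2IP. Only 2 fell under both limma fits, and likewise without siControl replicate 1, 2 or 3 or siDAB2IP replicate 2. The list summed to 8890 to 10900 CPM in siControl and 5810 to 7010 CPM in siDAB2IP. In bulk RNA, fewer cells of a type and less RNA per cell cannot be told apart. Of 7 luminal markers 4 were tested. FOXA1 alone rose (4.64 to 9.67 CPM), or 25% of those tested beside 6.55% of all genes tested. That call was lost without siControl replicate 1, siControl replicate 3 or siDAB2IP replicate 2 and under both limma fits. With the replicate block 1 luminal marker fell. PGR had 0 counts in every library and ESR1 was at 0.249 and 0.489 CPM, and the list summed to 303 to 318 CPM in siControl and 277 to 364 CPM in siDAB2IP. Of 7 fibroblast markers 3 were tested. COL1A1 rose (15.3 to 26.3 CPM), or 33.3% of those tested beside 6.55% of all genes tested. The call of COL1A1 was lost without siControl replicate 1 or siControl replicate 2. The other 2 tested were lower, and 1 fell with the replicate block. COL1A2, COL3A1, LUM and PDGFRA were below 0.2 CPM on average, and the sums were 163 to 293 CPM and 146 to 206 CPM. Of 7 immune and endothelial markers 4 were tested, of which 0 rose and 0 fell, and 1 fell with the replicate block. CD3E had 0 counts in every library, and PTPRC was at 0.0619 CPM in siControl and 0 in siDAB2IP. The sums were 51.9 to 81.1 CPM in siControl and 57.2 to 88.6 CPM in siDAB2IP. The part of these shifts in the values of the AP-1 and EGR genes was not tested.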

How the data were processed

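RNA-Seq counts from 6 MCF10A libraries, 3 siControl and 3 siDAB2IP, were analyzed. The submitters' processing notes name STAR 2.6.1d, featureCounts 1.5.0-p3, DESeq2 1.20.0, edgeR 3.24.3 and the build hg38. The authors deposited raw read counts per gene, whole numbers without normalization, and FPKM values, for which the authors scaled the counts by gene length and library total. The strand setting of the counting is not given in the sources used here, so genes that overlap another are uncertain. The identifiers of all 58735 genes were found in GENCODE 29 with the same start, end and strand.

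Counts were fitted in R 4.3.3 with edgeR 4.0.16 (filterByExpr, TMM, glmQLFit and glmQLFTest), with Benjamini-Hochberg adjustment over the 15430 genes tested and a threshold of 0.05. Standard errors come from the F statistic of that test. The common biological coefficient of variation was 14.8%. FPKM values served for levels between genes. The scripts were tested on simulated counts. The 10 genes and the gene lists were chosen with earlier results of these data known. Named were DAB2IP, the 10 genes, at most 5 called genes per direction of each list with the smallest p, the 3 genes most like FOS, EGR1 and FOSL1 (Pearson r of log2 CPM, mean of at least 5 CPM), genes that overlap one of the 10, and markers. SRF, NAB1, EGR2, EGR4 and the marker genes not called were added to complete their lists after their values were seen. Some genes that the rule names are not reported here.

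Alternatives were DESeq2 1.42.0, its size factors, scaling by library totals, no low-count filter, a minimum of 10 counts in each library, protein-coding genes, an adjusted p under 0.01, limma 3.58.1 on log2(FPKM + 1) and log2(FPKM + 0.1) with a mean of at least 1 FPKM, the replicate number as a block, and each library left out. Deviations of same-numbered libraries from their group means correlated across genes at 0.265, 0.155 and 0.255. That meets the criterion for pairing (each above 0.1). Deviations of libraries with different numbers correlated at −0.278 to 0.021. Within each group the deviations of a gene cancel out, so positive values for the same number push the others down. The values for different numbers are therefore no separate support for pairing. The labels do not state what the numbers stand for. The reported values come from the unblocked fit and so do not use this pairing. With the replicate block 4 of the 10 genes were called, as FOSL2 fell too.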

Additional observations from a re-analysis of the deposited data

How the results depend on the processing

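EGR1 and FOSL1 kept their direction and their call in all 16 alternatives (log2 fold change −2.19 to −1.58 and 0.71 to 0.93). FOS kept both in 15, and at an adjusted p under 0.01 it was not called (log2 fold change −1.37, adjusted p = 0.012 from edgeR). FOSL2 (adjusted p = 0.0573 from edgeR) was called by DESeq2 (−0.39, adjusted p = 0.0228), without a filter (−0.40, 0.0207), with at least 10 counts in every library (−0.40, 0.044) and with the replicate block (−0.38, 0.0165). JUN was called without a filter (0.49, adjusted p = 0.00488 from edgeR) and without siDAB2IP replicate 1 (0.69, 0.0391), and its log2 fold change lay between 0.20 and 0.69 with a library left out. Without a filter, 5 of the 10 genes were called in place of 3. The median over the 10 genes (−0.17) turned positive, to 0.037 with at least 10 counts in every library and to 0.045 under limma on log2(FPKM + 1) and on log2(FPKM + 0.1), alternatives that drop members with few counts, and lay between −0.27 and −0.02 with a library left out. The genes called, 2192 in all, were 1417 under limma on log2(FPKM + 0.1), 622 at an adjusted p under 0.01, 3233 with the replicate block, and 723 (without siControl replicate 2) to 2524 (without siDAB2IP replicate 3) with a library left out. The list genes called, 56, were 85 without a filter, 23 at an adjusted p under 0.01 and 24 (without siControl replicate 2) to 68 (without siDAB2IP replicate 3) with a library left out. JUNB, which was not called, changed sign in 3 of its 16 alternatives, and no called gene changed sign. The replicate block changed no other call among the 10 genes. FOSB, EGR3 and ATF3 are limited by depth, with as few as 10, 2 and 26 counts in a library, and gave no value under limma. The cause of these changes was not tested.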
